A study of Mus musculus with 12 samples.

Results

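CC chemokine ligands are small secreted proteins with a pair of adjacent cysteines near the amino terminus that attract leukocytes through G protein-coupled CCR receptors. The ligands examined here were the 10 genes Ccl2, Ccl3, Ccl4, Ccl5, Ccl7, Ccl8, Ccl12, Ccl17, Ccl22 and Ccl24, taken by name from the 17723 genes of a bulk RNA seq count table. All 10 were in the table and all 10 passed the filter on low counts that left 16306 genes to test. The cells were bone marrow-derived macrophages (BMDMs), that is, mouse bone marrow cells matured into macrophages in culture with the growth factor M-CSF. The donors were wild type mice labelled C57BL/6, which the methods give as C57Bl/6J, 8 to 10 weeks old. The 4 groups of 3 libraries were IL-13 + DKK1 (IL-13 at 2 ng/ml with DKK1 at 30 ng/ml), DKK1 alone at 30 ng/ml, IL-13 alone at 2 ng/ml and untreated cells, all harvested at 24 h. IL-13 is a type 2 cytokine that signals through STAT6 and drives alternative activation of macrophages, and DKK1 (Dickkopf1) is a secreted Wnt antagonist that platelets release. The study asked how DKK1 alters macrophage gene expression alone and together with IL-13. The replicates are named as biological, but the sources used here do not say how many mice they came from, and the p-values thus measure the spread between these cultures. Cells grown in M-CSF lack the tissue signals and the other tissue leukocytes that these ligands would act on. In a bulk sample fewer cells that make a transcript and less RNA per cell cannot be told apart.

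The members fall into groups by the receptors and cells they are known to act on. Ccl2, Ccl7, Ccl8 and Ccl12 are the monocyte chemoattractant proteins. Of these Ccl2, Ccl7 and Ccl12 act on Ccr2 and attract monocytes, while mouse Ccl8 has been described as a ligand of Ccr8. Ccl3, Ccl4 and Ccl5 are inflammatory ligands that draw in monocytes and T cells, of which Ccl3 and Ccl5 act on Ccr1. Ccl17 and Ccl22 bind Ccr4 on T helper 2 and regulatory T cells, and Ccl24 (eotaxin-2) binds Ccr3 on eosinophils, so these last 3 are commonly associated with type 2 immunity.

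The total count per library was 32224036 to 40917086. All 8 macrophage markers fixed for the check, among them Csf1r, Adgre1 and Lyz2, were detected, and their summed level in CPM (counts scaled by TMM to a common library size) was 33440 to 34520 with IL-13 + DKK1, 43960 to 44650 with DKK1, 19320 to 20360 with IL-13 and 27360 to 28050 in untreated cells. Lyz2 made up most of each sum, at 32167 CPM with DKK1 and 17044 CPM in untreated cells. The 8 markers did not move together, and Cd68 averaged 727 CPM with DKK1 and 979 CPM in untreated cells. The first principal component held 43% of the variance and the second 23.4%, and the 3 libraries of each group lay together. Among counts of 1 to 20, 76% were even numbers, against 51.6% of counts above 1000. Counts of Ccl22 were even in 12 of 12 libraries and those of Ccl5, Ccl8 and Ccl24 in 11 of 12, so that the number of independent molecules behind their counts is unknown.

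The ligands moved in both directions. Calls needed an adjusted p below 0.05 together with a log2 fold change beyond 1 in either direction. With IL-13 + DKK1 against untreated cells 8 of the 10 ligands were higher and 2 lower, while 5.24% of all tested genes were called higher and 6.59% lower. With DKK1 alone 7 were higher and 2 lower, against 5.18% and 6.46% of all tested genes, where the count of 7 includes Ccl17, which passed the filter on low counts only through its counts with IL-13. Fitted on only the 2 groups compared, 6 were higher with DKK1. With IL-13 alone 6 were higher and 2 lower, against 4.64% and 3.49%. These 3 comparisons share the untreated libraries. Their shares of all tested genes are also the background for the counts of marker genes given below. When DKK1 was added to IL-13, 6 ligands were higher and 0 lower than with IL-13 alone by edgeR, against 4.66% and 6.10% of all tested genes. There 3 ligands were lower at an unadjusted p under 0.05, and DESeq2 called 1 lower. Compared with DKK1 alone, co-treatment gave 6 ligands higher and 0 lower by edgeR, against 3.22% and 2.29% of all tested genes, with 1 lower at an unadjusted p under 0.05 and 0 by DESeq2. The median log2 fold change of the 10 ligands with IL-13 + DKK1 over untreated cells was 6.33, or 5.22 with Ccl17 at its bound, and that of all tested genes was -0.00998. It was 3.01 with DKK1 (2.66 with Ccl17 at its bound; all genes -0.036) and 1.95 with IL-13 (all genes -0.0244).

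**Figure D1:**
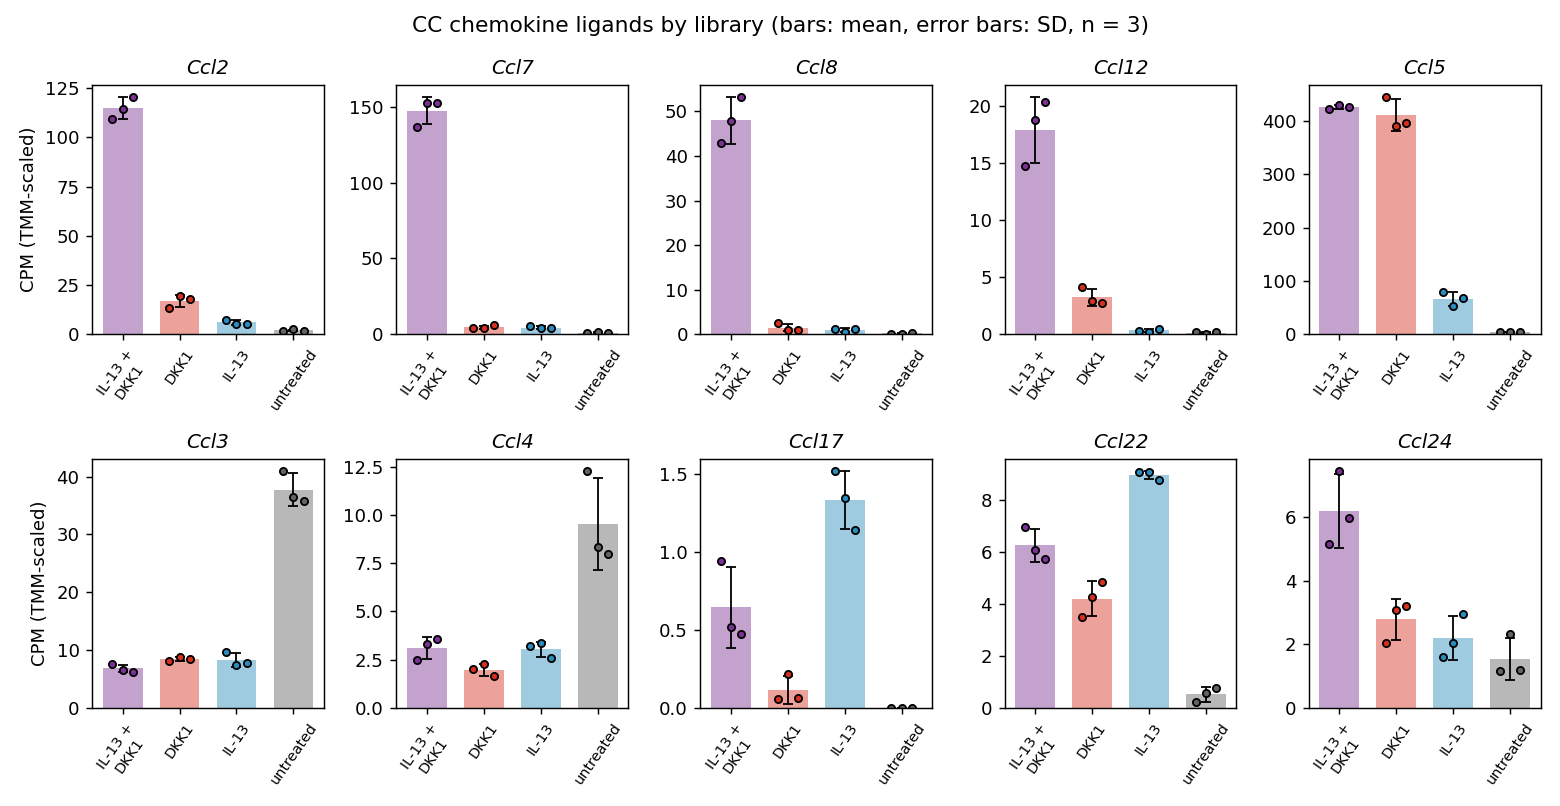
Each panel shows 1 ligand, with a point for each library, a bar for the group mean and an error bar for the SD (n = 3), in TMM-scaled CPM on an axis that starts at 0, for IL-13 + DKK1, DKK1, IL-13 and untreated BMDMs. Ccl2, Ccl7, Ccl8, Ccl12 and Ccl24 were highest with IL-13 + DKK1, Ccl5 was high in both DKK1 groups, Ccl3 and Ccl4 were highest in untreated cells, and Ccl17 and Ccl22 were highest with IL-13.

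Ccl2, Ccl7, Ccl8 and Ccl12 were low in untreated BMDMs and reached their highest levels with IL-13 + DKK1. Their genes lie in 1 cluster on chromosome 11 (GRCm39, GENCODE vM39), in which Ccl11 stands between Ccl7 and Ccl12. Ccl2 is at 81926397 to 81928279, Ccl7 at 81936532 to 81938351, Ccl12 at 81992645 to 81994466 and Ccl8 at 82006007 to 82007625, all on the plus strand and with no other annotated gene overlapping them. The sequences just upstream of Ccl8 and Ccl12, which are neighbours, are shown because they are the members of the 4 with a sequence in the RefSeq promoter table. They are the bases from 160 to 21 before the RefSeq start of each gene (RefSeq promoter table of GRCm38.p6, each found once on GRCm39), with capitals for the 3 runs of 8 bases that both 250-base upstream sequences share. The last 6 bases of the Ccl12 sequence are within a GENCODE exon.
Ccl8 (chr11:82005851-82005990, plus strand): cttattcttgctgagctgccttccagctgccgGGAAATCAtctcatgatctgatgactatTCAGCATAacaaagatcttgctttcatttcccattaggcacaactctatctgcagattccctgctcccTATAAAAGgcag
Ccl12 (chr11:81992511-81992650, plus strand): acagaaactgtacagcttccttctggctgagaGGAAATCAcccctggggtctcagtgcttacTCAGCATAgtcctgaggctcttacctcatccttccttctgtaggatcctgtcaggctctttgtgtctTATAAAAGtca
The runs occur in the same order and at nearly the same distance from the start of both genes. GGAAATCA began 128 bases upstream of both starts, TCAGCATA 100 bases upstream of Ccl8 and 98 upstream of Ccl12, and TATAAAAG, which holds a TATA box, 32 and 31 bases upstream. On either strand GGAAATCA was in 0.983% of 32851 promoters of this length, TCAGCATA in 0.481% and TATAAAAG in 1.51%. The runs were picked after the sequences were seen and describe likeness of sequence only.

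Ccl2, the main monocyte attractant, had 109.5, 114 and 121 CPM with IL-13 + DKK1, 13.3, 19.5 and 17.8 CPM with DKK1, 7.45, 5.08 and 5.43 CPM with IL-13 and 1.42, 2.41 and 1.85 CPM in untreated cells. No library of any group overlapped with those of another group. The log2 fold change over untreated cells was 5.93 ± 0.15 (SE) with IL-13 + DKK1 (edgeR adjusted p = 2.01e-18), 3.16 ± 0.17 with DKK1 (5.87e-13) and 1.67 ± 0.19 with IL-13 (2.4e-07). Co-treatment was also 4.27 ± 0.13 above IL-13 alone (edgeR adjusted p = 4.86e-17) and 2.77 ± 0.11 above DKK1 alone (2.81e-14).

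Ccl7, which attracts monocytes through Ccr2, had 137, 153 and 153 CPM with IL-13 + DKK1, against 3.81, 4.29 and 5.81 CPM with DKK1, 5.25, 3.98 and 4.06 CPM with IL-13 and 0.749, 1.37 and 0.723 CPM in untreated cells. Each single treatment gave a few CPM, with overlap between them, and co-treatment more than 100. Over untreated cells Ccl7 had a log2 fold change of 7.30 ± 0.14 with IL-13 + DKK1 (edgeR adjusted p = 4.05e-20), 2.30 ± 0.21 with DKK1 (4.25e-09) and 2.24 ± 0.21 with IL-13 (8.05e-09). With IL-13 + DKK1 it was 5.06 ± 0.11 above IL-13 alone (edgeR adjusted p = 7.48e-19) and 5.00 ± 0.11 above DKK1 alone (3.71e-18).

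Ccl8 had 42.8, 47.9 and 53.3 CPM with IL-13 + DKK1, 2.42, 1.05 and 1.04 CPM with DKK1, 1.13, 0.439 and 1.25 CPM with IL-13 and 0.160, 0.119 and 0.268 CPM in untreated cells. The untreated values rest on 6, 4 and 10 counts, and DKK1 and IL-13 libraries overlapped. For Ccl8 the log2 fold change over untreated cells was 8.0 ± 0.29 with IL-13 + DKK1 (edgeR adjusted p = 7.2e-16), the second highest of all tested genes, 3.01 ± 0.45 with DKK1 (8.66e-06) and 2.33 ± 0.49 with IL-13 (0.000481). Over IL-13 alone co-treatment gave 5.67 ± 0.23 (edgeR adjusted p = 5.9e-15) and over DKK1 alone 4.98 ± 0.21 (6.45e-14).

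Ccl12, a mouse monocyte attractant of the same family, had 14.7, 18.7 and 20.3 CPM with IL-13 + DKK1, 4.11, 2.87 and 2.71 CPM with DKK1, 0.298, 0.220 and 0.491 CPM with IL-13 and 0.214, 0.0594 and 0.161 CPM in untreated cells. The last 2 groups hold 10, 8 and 18 counts with IL-13 and 8, 2 and 6 counts in untreated cells. The log2 fold change over untreated cells was 6.89 ± 0.28 with IL-13 + DKK1 (edgeR adjusted p = 4.49e-15) and 4.42 ± 0.32 with DKK1 (1.41e-10). Ccl12 was the only member of the 4 that was not called with IL-13 alone, where the log2 fold change was 1.18 ± 0.48 (edgeR adjusted p = 0.0518). That value lay near the threshold: it was called with DESeq2 (1.20, adjusted p = 0.0229) and when 1 of 6 libraries was left out, namely untreated replicate 1 (1.56), IL-13 replicate 2 (1.41), DKK1 replicate 1 or 3 (1.19 each), or IL-13 + DKK1 replicate 1 (1.18) or 3 (1.19). Co-treatment was 5.72 ± 0.24 above IL-13 alone (edgeR adjusted p = 1.84e-14) and 2.47 ± 0.18 above DKK1 alone (3.18e-10).

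Single treatments did not add up to the level of the co-treated cells for these 4 genes. The sum of the untreated level and the increases with IL-13 alone and with DKK1 alone was taken as an additive level. It was formed from group means. The ranges given for its ratios, here and below, thus hold only the spread of the co-treated libraries and not that of the other groups. Ccl8 averaged 48.0 CPM with IL-13 + DKK1 against an additive level of 2.26 CPM, a ratio of 21.2, which was 18.9 to 23.5 over the 3 co-treated libraries. For Ccl7 the co-treated mean was 148 CPM and the additive level 8.12 CPM, a ratio of 18.2 (16.9 to 18.8). The ratio was 5.48 for Ccl2 (5.22 to 5.75), with 115 CPM against 21.0 CPM, and 5.24 for Ccl12 (4.30 to 5.94), with 17.9 CPM against 3.42 CPM.

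The interaction compares fold changes instead of added levels, and takes the DKK1 effect in untreated cells away from the DKK1 effect in IL-13-treated cells. It was called higher for 5 ligands and lower for 3, against 2.12% and 2.50% of all tested genes. For Ccl7 the interaction was 2.76 ± 0.29 (edgeR adjusted p = 2.2e-07), for Ccl8 2.66 ± 0.71 (0.00766) and for Ccl2 1.10 ± 0.24 (0.00118). For Ccl12 it was 1.29 ± 0.57 and not called (edgeR adjusted p = 0.106), but it was called with DESeq2 (1.26, adjusted p = 0.0438). The call for Ccl8 was lost without untreated replicate 3 (2.27, edgeR adjusted p = 0.0946), and that for Ccl2 fell under the fold threshold without untreated replicate 2 (0.90), IL-13 replicate 2 (0.996) or DKK1 replicate 1 (0.93).

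**Figure D2:**
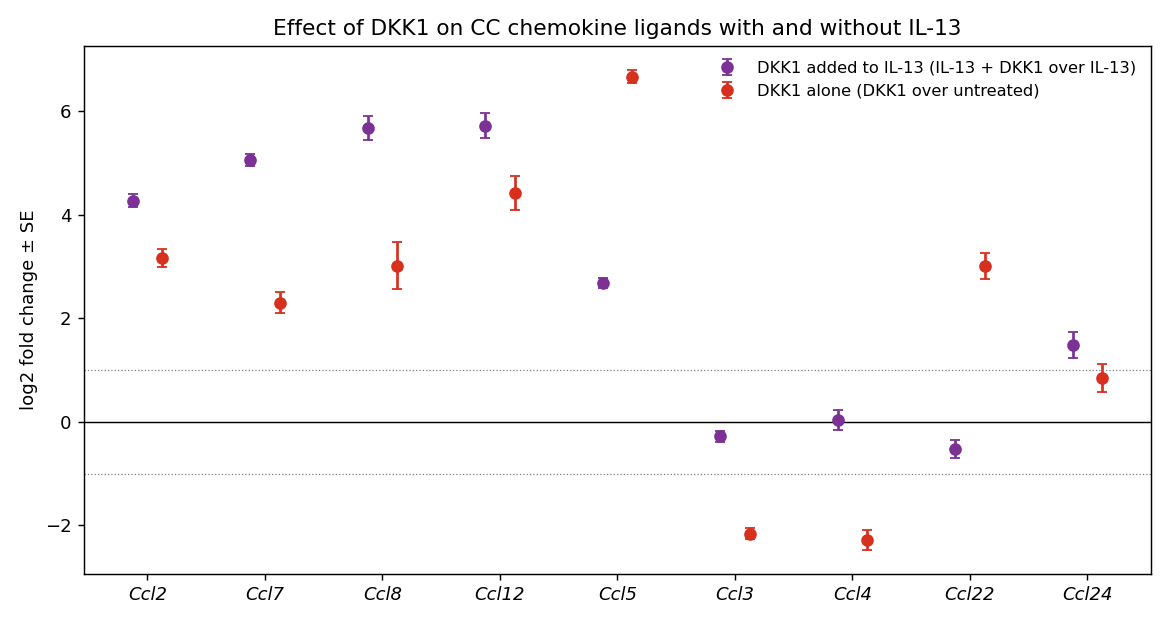
Points give the log2 fold change for DKK1 of each ligand with its SE (vertical axis), with IL-13 present (IL-13 + DKK1 over IL-13) and without IL-13 (DKK1 over untreated), all from 1 edgeR model of 12 libraries; Ccl17, at 0 counts in untreated cells, is left out because its fold without IL-13 is a bound. For Ccl7 the effect was 5.06 with IL-13 and 2.30 without it, while for Ccl5 it was 2.68 with IL-13 and 6.67 without it.

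The 8 neutrophil markers, all detected, had their highest sum in the co-treated group, in which these 4 genes peaked, but did not move together. Their summed level was 550.5 to 679 CPM with IL-13 + DKK1, 349 to 370.1 CPM with DKK1, 320 to 466 CPM with IL-13 and 459 to 505 CPM in untreated cells. S100a8, S100a9 and Ltf made up most of the sum. Over untreated cells 1 of 8 was called higher with IL-13 + DKK1, the chemokine receptor gene Cxcr2 (log2 fold change 2.56 ± 0.16, edgeR adjusted p = 7.07e-12), and 1 lower, Ly6g (-1.43 ± 0.56, 0.0382). Camp averaged 14.6 CPM with IL-13 + DKK1 and 26.1 CPM in untreated cells, under the fold threshold. Ly6g, the defining surface marker, averaged 0.257 CPM with IL-13 + DKK1, 0.148 CPM with DKK1, 0.535 CPM with IL-13 and 0.690 CPM in untreated cells. Their part in the chemokine values was not tested.

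Ccl5 (RANTES), which attracts T cells, monocytes and eosinophils through receptors that include Ccr1 and Ccr3, had the highest level of the 10 ligands in each treated group, also per length of transcript. It had 422, 429 and 425 CPM with IL-13 + DKK1, 445, 390.1 and 396 CPM with DKK1, 78.6, 52.0 and 68.2 CPM with IL-13 and 3.42, 4.75 and 3.96 CPM in untreated cells. Both DKK1 groups overlapped, IL-13 libraries lay well below them and untreated libraries below those. Relative to untreated cells the log2 fold change was 6.72 ± 0.13 with IL-13 + DKK1 (edgeR adjusted p = 2.42e-20), 6.67 ± 0.13 with DKK1 (3.89e-20) and 4.04 ± 0.13 with IL-13 (4.92e-16). Adding DKK1 to IL-13 raised Ccl5 by 2.68 ± 0.09 (edgeR adjusted p = 5.17e-16), whereas adding IL-13 to DKK1 gave 0.05 ± 0.08 (edgeR adjusted p = 0.676). The interaction was -3.99 ± 0.16 (edgeR adjusted p = 2.19e-13). The co-treated mean of 425 CPM was 0.900 times the additive level of 472 CPM (0.893 to 0.908 over the 3 co-treated libraries). That range leaves out the spread of the other groups, which for DKK1 ran from 390.1 to 445 CPM.

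Ccl5 is on chromosome 11 at 83416602 to 83425942 on the minus strand, where the annotation places the lncRNA Gm73713 on the opposite strand. The sources used here do not give the strand setting of the counting, so reads of both genes cannot be told apart. T and NK cells, which are another known source of Ccl5, were checked by 10 markers, of which only Cd4 and Lck were among the genes of the table. Their summed level was 4.67 to 6.22 CPM with IL-13 + DKK1, 9.66 to 14.8 CPM with DKK1, 3.04 to 5.66 CPM with IL-13 and 7.93 to 11.1 CPM in untreated cells, nearly all of it from Cd4, and the defining T cell receptor subunits Cd3e, Cd3d and Cd3g were not among the genes of the table. Platelets also store Ccl5. The 5 of 8 platelet markers in the table summed to 3866 to 4058 CPM with IL-13 + DKK1, 2187 to 2568 CPM with DKK1, 357 to 397 CPM with IL-13 and 186 to 220.2 CPM in untreated cells. Nearly all of these sums was the chemokine Pf4, while the platelet receptor gene Itga2b averaged 0.854 CPM with IL-13 + DKK1, 0.881 CPM with DKK1, 0.461 CPM with IL-13 and 1.41 CPM in untreated cells. Ppbp, another chemokine, averaged 127 CPM with IL-13 + DKK1, 54.9 CPM with DKK1, 2.48 CPM with IL-13 and 1.70 CPM in untreated cells. Over untreated cells 2 of the 5 were called higher (Pf4 and Ppbp) and 1 lower (Gp1ba) with IL-13 + DKK1. With DKK1 the same 2 were higher and 0 lower, and with IL-13 0 were higher and 1 lower (Itga2b). The part of these markers in the Ccl5 values was not tested.

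Ccl3 and Ccl4 (MIP-1 alpha and MIP-1 beta), which attract monocytes and T cells, were the ligands that fell. Ccl3 had 7.56, 6.62 and 6.30 CPM with IL-13 + DKK1, 8.07, 8.89 and 8.45 CPM with DKK1, 9.60, 7.49 and 7.69 CPM with IL-13 and 41.1, 36.5 and 35.8 CPM in untreated cells. All 9 treated libraries were under 10 CPM and all 3 untreated ones above 35 CPM. The log2 fold change over untreated cells was -2.47 ± 0.10 with IL-13 + DKK1 (edgeR adjusted p = 6.25e-15), -2.16 ± 0.10 with DKK1 (6.34e-14) and -2.19 ± 0.10 with IL-13 (9.04e-14). Co-treatment differed from each single treatment by less than the fold threshold, with -0.28 ± 0.11 against IL-13 (edgeR adjusted p = 0.0443) and -0.31 ± 0.11 against DKK1 (0.0264). The interaction was 1.88 ± 0.15 (edgeR adjusted p = 2.65e-09), since the fall with both agents together was far smaller than the sum of both single falls on the log2 scale.

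Ccl4 had 2.48, 3.33 and 3.56 CPM with IL-13 + DKK1, 2.02, 2.25 and 1.63 CPM with DKK1, 3.19, 3.35 and 2.59 CPM with IL-13 and 12.3, 8.34 and 7.98 CPM in untreated cells. The untreated libraries again lay above all 9 treated ones. Relative to untreated cells Ccl4 had a log2 fold change of -1.61 ± 0.18 with IL-13 + DKK1 (edgeR adjusted p = 1.49e-07), -2.27 ± 0.19 with DKK1 (1.89e-09) and -1.65 ± 0.18 with IL-13 (1.39e-07). Co-treatment was 0.67 ± 0.21 above DKK1 alone (edgeR adjusted p = 0.013), under the fold threshold, and 0.04 ± 0.19 from IL-13 alone (0.883), a difference whose sign turned with library size scaling (-0.00135) and without IL-13 replicate 3 (-0.0605), IL-13 + DKK1 replicate 2 (-0.00384) or IL-13 + DKK1 replicate 3 (-0.0703). The interaction was 2.32 ± 0.27 (edgeR adjusted p = 1.15e-06).

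Ccl17 (TARC) and Ccl22 (MDC), the Ccr4 ligands, were highest with IL-13 alone and had lower mean values when DKK1 was added. They lie close together on chromosome 8, with Ccl22 at 95471226 to 95478327 and Ccl17 at 95534358 to 95538664, both on the plus strand. The upstream sequence of Ccl17 is shown because IL-13 signals through STAT6 and the 250 bases before this gene hold TTCNNNGAA, letters that STAT dimers are known to bind, although STAT6 itself prefers a wider spacing. Capitals mark this match, which began 99 bases upstream of the RefSeq start, a start that lies inside the GENCODE span of the gene.
Ccl17 (chr8:95536921-95537060, plus strand): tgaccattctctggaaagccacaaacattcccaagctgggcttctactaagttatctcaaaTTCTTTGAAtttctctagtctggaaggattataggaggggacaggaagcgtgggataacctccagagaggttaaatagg
The letters TTCNNNGAA read the same on both strands and were in 7.02% of the 32851 promoters. RefSeq promoters were matched for 5 of the 10 ligands, Ccl3, Ccl8, Ccl12, Ccl17 and Ccl22, and not for Ccl2, Ccl4, Ccl5, Ccl7 and Ccl24. Among the 5, only that of Ccl17 held TTCNNNGAA, and none held the AP-1 letters TGANTCA on either strand, which were in 6.75% of promoters. A match is a likeness of letters and not a measured binding site.

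Ccl17 had 0 counts in all 3 untreated libraries. It had 32, 21 and 18 counts with IL-13 + DKK1 (0.946, 0.519 and 0.474 CPM), 2, 7 and 2 counts with DKK1 (0.0604, 0.216 and 0.0653 CPM) and 51, 49 and 42 counts with IL-13 (1.52, 1.35 and 1.15 CPM). The 3 groups with counts did not overlap. Against a floor of 3 counts over the untreated group, the bound on the fold of Ccl17 was 22.9 with IL-13 + DKK1, 4.14 with DKK1 and 48.1 with IL-13. These bounds cover counting error of the untreated group only. They take its counts as independent and the treated counts as exact. The comparisons of IL-13 + DKK1 and IL-13 with untreated cells were called (edgeR adjusted p = 3.28e-06 and 2.27e-07 in that order). The comparison of DKK1 with untreated cells (edgeR adjusted p = 0.00425) rests on 11 counts against 0 and was tested only because Ccl17 passed the filter through the IL-13 groups, and with only those 2 groups its counts did not pass the filter. Without DKK1 replicate 2 the bound for DKK1 was 2.27-fold (edgeR adjusted p = 0.0271). Co-treatment was 2.45 ± 0.56 on the log2 scale above DKK1 alone (edgeR adjusted p = 0.00157), and 3.27 without DKK1 replicate 2, which holds 7 of the 11 counts of its group. Compared with IL-13 alone it was -1.05 ± 0.43 and not called (edgeR adjusted p = 0.0554), but that difference was called without DKK1 replicate 2 (-1.06, adjusted p = 0.0467) or IL-13 + DKK1 replicate 1 (-1.42, adjusted p = 0.0409), and in DESeq2 (-1.06, adjusted p = 0.049).

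Ccl22 had 6.97, 6.08 and 5.75 CPM with IL-13 + DKK1, 3.50, 4.26 and 4.83 CPM with DKK1, 9.06, 9.06 and 8.78 CPM with IL-13 and 0.214, 0.594 and 0.750 CPM in untreated cells. The 4 groups did not overlap. The log2 fold change over untreated cells was 3.59 ± 0.24 with IL-13 + DKK1 (edgeR adjusted p = 2.16e-11), 3.01 ± 0.24 with DKK1 (8.16e-10) and 4.11 ± 0.23 with IL-13 (3.15e-12). Co-treatment differed from IL-13 alone by -0.52 ± 0.17 (edgeR adjusted p = 0.0158) and from DKK1 alone by 0.58 ± 0.18 (0.0133), both under the fold threshold. The interaction was -3.53 ± 0.30 (edgeR adjusted p = 9.44e-09). Co-treated cells stood at 0.495 times the additive level for Ccl22 (0.454 to 0.551 over the libraries), with 6.26 CPM against 12.6 CPM, and at 0.445 times for Ccl17 (0.327 to 0.652), with 0.646 CPM against 1.45 CPM.

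Dendritic cells are a known source of both ligands. Of 10 dendritic cell markers 8 were in the table, with a summed level of 10.8 to 12.4 CPM with IL-13 + DKK1, 7.64 to 9.79 CPM with DKK1, 22.0 to 22.9 CPM with IL-13 and 6.38 to 9.90 CPM in untreated cells. Most of the IL-13 sum was Batf3, a transcription factor, at 16.1 CPM, against 2.84 CPM with IL-13 + DKK1, 1.52 CPM with DKK1 and 2.36 CPM in untreated cells. Of 7 that were tested, 3 were called higher with IL-13 than in untreated cells, namely Batf3, Ccr7 and Zbtb46, and 0 lower. With IL-13 + DKK1 1 was called higher (Ccr7) and 1 lower (Clec9a). With DKK1 2 were called higher (Ccr7 and Xcr1) and 1 lower (Clec9a). Zbtb46, a transcription factor of conventional dendritic cells, averaged 0.550 CPM with IL-13 + DKK1, 0.171 CPM with DKK1, 1.24 CPM with IL-13 and 0.428 CPM in untreated cells, with a log2 fold change of 1.53 ± 0.51 for IL-13 (edgeR adjusted p = 0.0176). Flt3, Xcr1 and Clec9a, which also define these cells, averaged under 1 CPM in every group. The part of these markers in the Ccl17 and Ccl22 values was not tested.

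Ccl24, the eosinophil attractant eotaxin-2, was called higher than in untreated cells with IL-13 + DKK1 and with neither single treatment. It had 5.14, 7.46 and 5.96 CPM with IL-13 + DKK1, 2.05, 3.09 and 3.20 CPM with DKK1, 1.61, 2.03 and 2.95 CPM with IL-13 and 1.15, 2.32 and 1.18 CPM in untreated cells. All co-treated libraries lay above all others, and the other 3 groups overlapped. Over untreated cells the log2 fold change was 2.01 ± 0.26 with IL-13 + DKK1 (edgeR adjusted p = 1.01e-06), 0.85 ± 0.27 with DKK1 (0.0139) and 0.52 ± 0.28 with IL-13 (0.132). Leaving out untreated replicate 2 (1.25) or DKK1 replicate 1 (1.05) brought the DKK1 value past 1. Co-treatment was 1.49 ± 0.25 above IL-13 alone (edgeR adjusted p = 3.33e-05) and 1.16 ± 0.25 above DKK1 alone (0.000607), or 0.96 without DKK1 replicate 1. The co-treated mean of 6.19 CPM was 1.80 times the additive level of 3.43 CPM (1.5 to 2.18), and the interaction of 0.64 ± 0.37 was not called (edgeR adjusted p = 0.232). Ccl24 is on chromosome 5 at 135598668 to 135601905, on the minus strand.

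**Figure D3:**
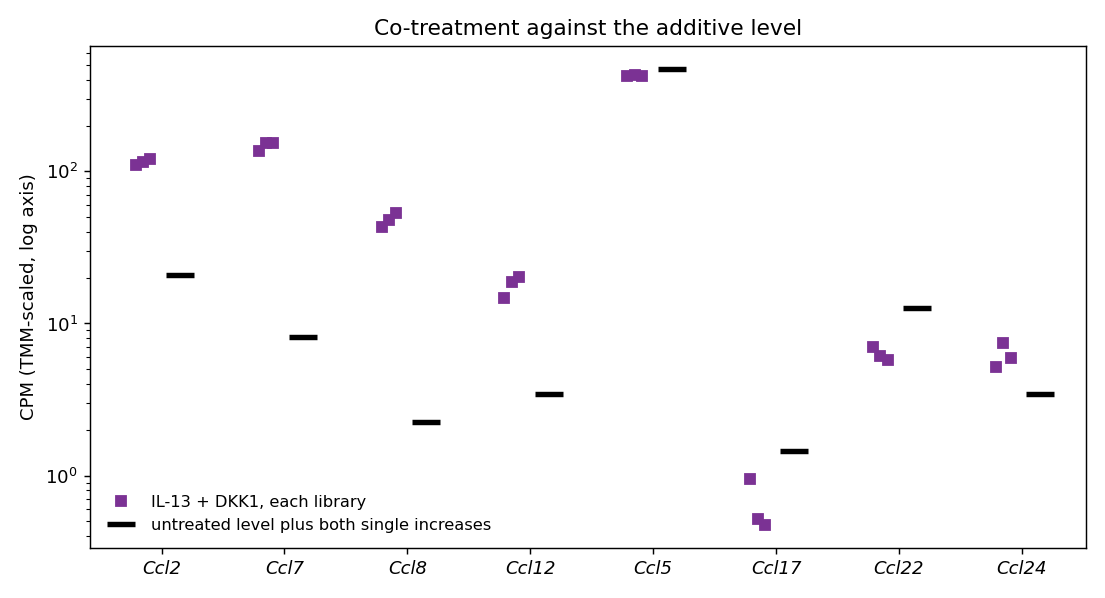
Squares give the CPM of each of the 3 IL-13 + DKK1 libraries on a log axis, and horizontal marks the untreated level plus both single increases, for the 8 ligands whose means were above untreated in both single treatments. Ccl7 and Ccl8 lay 18.2 and 21.2 times above the mark, Ccl2 and Ccl12 5.48 and 5.24 times, Ccl24 1.80 times and Ccl5 at 0.900 times, with Ccl22 and Ccl17 below it.

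To compare ligands with each other, CPM were divided by the length of the merged exons in kb. The summed level of the 10 ligands was 834.8 ± 31.0 CPM per kb with IL-13 + DKK1, 445 ± 27.1 with DKK1, 99.9 ± 16.8 with IL-13 and 71.2 ± 6.05 in untreated cells (SD, n = 3 each). Ccl3 led in untreated cells with 68.4% of the sum, followed by Ccl4 with 19.5%, and their libraries did not overlap. Ccl5 led in each treated group, with 49.6% of the sum with IL-13 + DKK1, 89.8% with DKK1 and 64.6% with IL-13. Under co-treatment the order after Ccl5 at 414 ± 3.39 CPM per kb was Ccl7 at 183 ± 11.3, Ccl2 at 101 ± 4.90, Ccl8 at 93.2 ± 10.1 and Ccl12 at 22.3 ± 3.60, of which Ccl2 and Ccl8 overlapped and the others did not. Ccl2, Ccl7, Ccl8 and Ccl12 together made up 47.8% of the sum with IL-13 + DKK1, 6.19% with DKK1, 13.02% with IL-13 and 4.73% in untreated cells. Ccl3 and Ccl4 together made up 1.60% with IL-13 + DKK1, 3.10% with DKK1, 15.1% with IL-13 and 87.9% in untreated cells. With DKK1, Ccl2 at 14.8 ± 2.82 CPM per kb overlapped with neither Ccl5 above it nor Ccl3 at 10.9 ± 0.534 below it, and with IL-13, Ccl2 at 5.26 ± 1.13 overlapped with both Ccl7 at 5.49 ± 0.878 and Ccl4 at 4.43 ± 0.582, while Ccl7 and Ccl4 did not overlap.

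**Figure D4:**
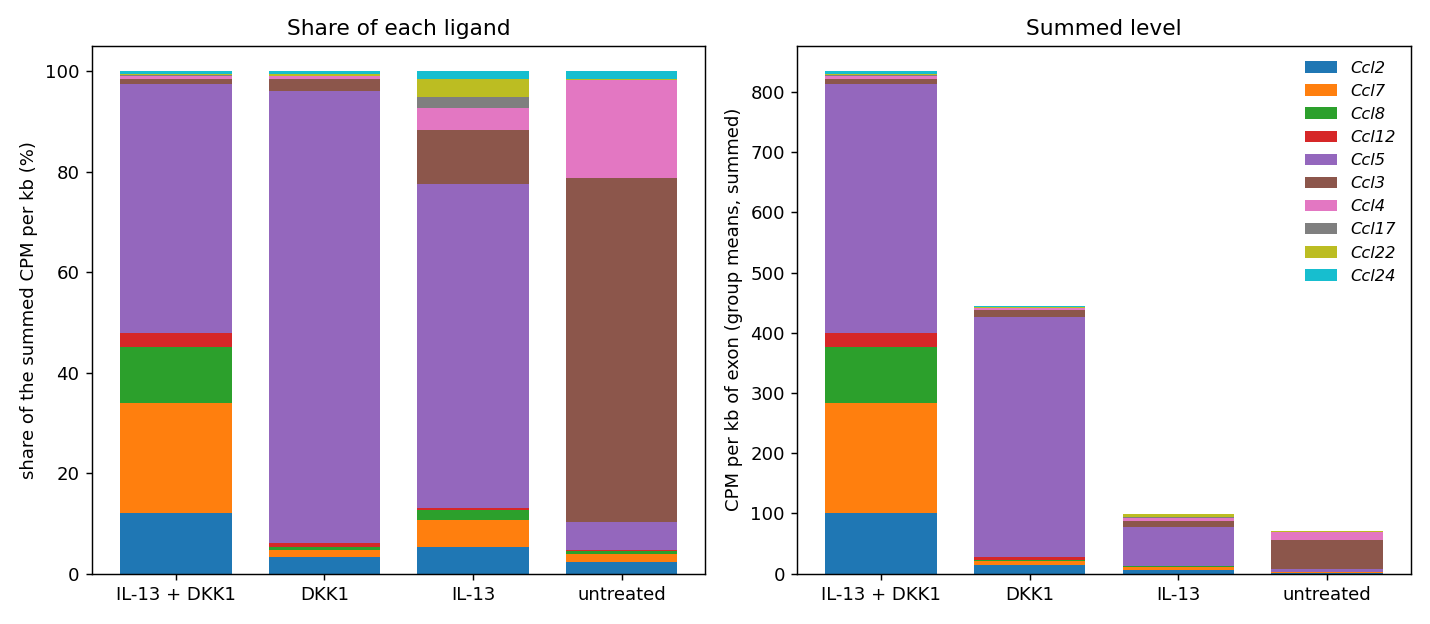
Stacked bars show the 10 ligands in CPM per kb of exon, as the share of their summed level in percent on the left and as the sum of group means on the right, for IL-13 + DKK1, DKK1, IL-13 and untreated BMDMs. Ccl3 and Ccl4 fill 87.9% of the untreated bar, Ccl5 fills 89.8% of the DKK1 bar, and Ccl5 with Ccl2, Ccl7, Ccl8 and Ccl12 fills nearly all of the IL-13 + DKK1 bar.

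The ligands of chromosome 11 fall into separate neighbourhoods with different values. Counted from the start of Ccl2, Ccl7 starts 10.1 kb away, Ccl12 66.2 kb and Ccl8 79.6 kb, and all 4 were higher with DKK1 and with IL-13 + DKK1. Ccl5 starts 1499.5 kb away, Ccl3 1613.8 kb and Ccl4 1627.0 kb. Among the 10 ligands, the gene with the highest treated level and the 2 genes that fell thus share a neighbourhood. Between Ccl5 and Ccl3 lie Ccl9 and Ccl6, 1546.8 and 1557.5 kb from Ccl2, which were higher in all 3 treated groups. Ccl3 (83538670 to 83540191, minus strand) overlaps the lncRNA Gm53692 on the opposite strand, Ccl4 (83553383 to 83555509, plus strand) overlaps no annotated gene, and Ccl9 and Ccl6 overlap E230016K23Rik on the opposite strand. Ccl1 and Ccl11, which the annotation places in the Ccl2 neighbourhood, were not among the genes of the table. The longest identical stretch shared by transcripts of any pair of the 10 ligands was 23 bases, between Ccl2 and Ccl7, followed by 17 bases for Ccl7 and Ccl8 and for Ccl2 and Ccl12.

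**Figure D5:**
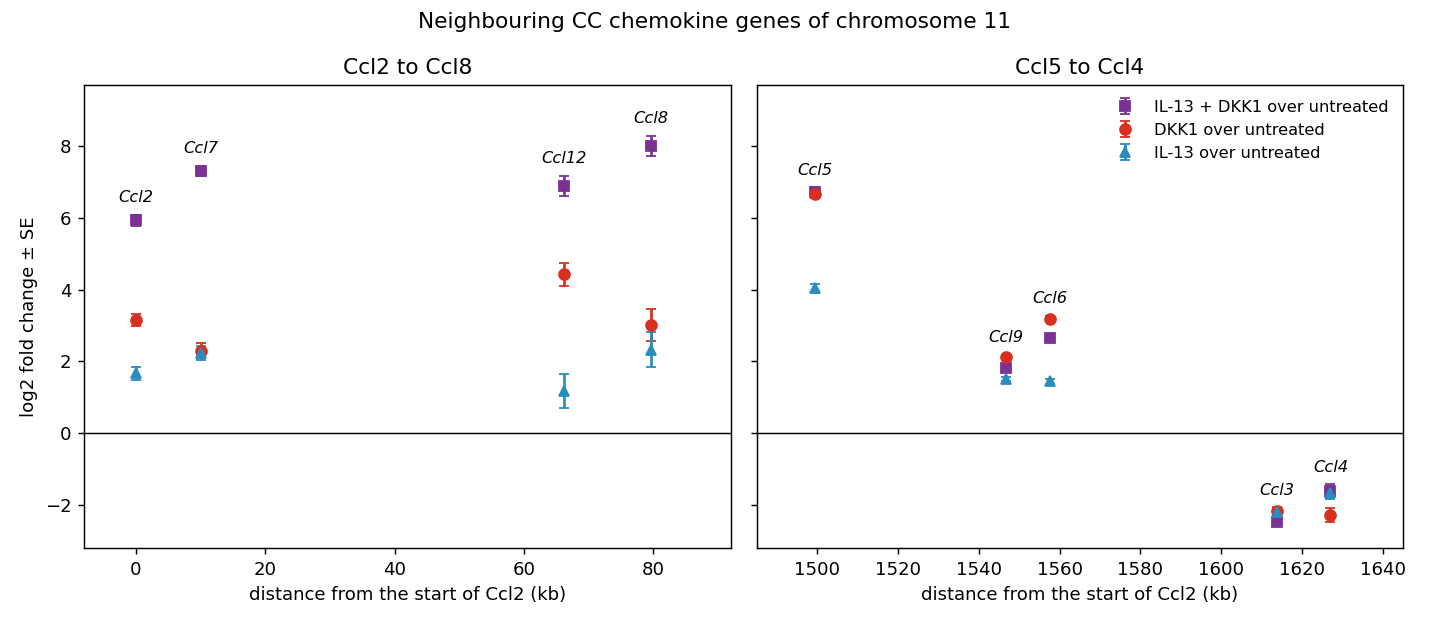
Points give log2 fold changes with SE for the CC ligand genes of chromosome 11 against the distance of their start from that of Ccl2 in kb, in 2 stretches, for the treatments named in the legend. Ccl2, Ccl7, Ccl12 and Ccl8 lie together above 0 on the left, while on the right Ccl5, Ccl9 and Ccl6 are above 0 and Ccl3 and Ccl4 below it.

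Across the 12 libraries the levels of some ligands ran in parallel, which is given as a description because libraries of 1 group share a treatment. Pearson's r was 0.975 for Ccl7 with Ccl8 (Spearman's rho 0.797), 0.962 for Ccl2 with Ccl7 (rho 0.916) and 0.958 for Ccl2 with Ccl12 (rho 0.944). It was 0.871 for Ccl17 with Ccl22 (rho 0.991) and negative for Ccl3 with Ccl22, at -0.944 (rho -0.608). Among 10302 genes of at least 5 CPM on average, the genes most like each ligand by Pearson's r were Man1a (0.992) and Tmx1 (0.990) for Ccl2, Clcn5 (0.992) and Tnfrsf26 (0.990) for Ccl7, Snx8 (0.995) and Gnb1 (0.991) for Ccl8, and Ap1b1 (0.987) and Rbms1 (0.987) for Ccl12. They were Rab3il1 (0.994) and Fcgr2b (0.992) for Ccl5, Wwp1 (0.990) and Ankrd28 (0.990) for Ccl3, Rbm45 (0.967) and Sft2d1 (0.957) for Ccl4, Ccne1 (0.983) and Calm3 (0.981) for Ccl17, Erg28 (0.984) and Atp5e (0.980) for Ccl22, and Arpc4 (0.965) and Gm19680 (0.959) for Ccl24. Spearman's rho was lower than Pearson's r for each of these most alike pairs, down to 0.748 for Ccl3 with Ankrd28.

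The receptors of these ligands were counted from a list of 13 CC receptors and decoy receptors, of which 8 were in the table and 7 were tested. Ccr4, the receptor of Ccl17 and Ccl22, was among the 5 that were not in the table, with Ccr6, Ccr8, Ackr1 and Ackr2. With IL-13 + DKK1 3 were higher and 1 lower than in untreated cells, against 5.24% and 6.59% of all tested genes. With DKK1 2 were higher, against 5.18%, and with IL-13 3 were higher, against 4.64%. Ccr1, which binds Ccl3 and Ccl5, averaged 132 CPM with IL-13 + DKK1, 121 CPM with DKK1, 16.0 CPM with IL-13 and 5.71 CPM in untreated cells, and rose in all 3 treated groups. Ccr2, the receptor of Ccl2, Ccl7 and Ccl12, was lowest where these ligands were highest, with 15.8 ± 1.11 CPM with IL-13 + DKK1, 40.7 ± 7.22 with DKK1, 61.8 ± 4.31 with IL-13 and 81.0 ± 1.01 in untreated cells (SD, n = 3 each). Its log2 fold change with IL-13 + DKK1 was -2.36 ± 0.09 over untreated cells (edgeR adjusted p = 1.73e-15), -1.97 ± 0.09 over IL-13 (5.54e-14) and -1.37 ± 0.09 over DKK1 (8.52e-11), while that of DKK1 alone, -0.99 ± 0.08, was just under the fold threshold.

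Ccr3, the receptor of Ccl24, averaged 19.0 CPM with IL-13 + DKK1, 5.36 CPM with DKK1, 35 CPM with IL-13 and 8.81 CPM in untreated cells. It was called higher with IL-13 (log2 fold change 1.99 ± 0.11, edgeR adjusted p = 1.68e-12) and with IL-13 + DKK1 (1.11 ± 0.11, 1.84e-08). Ccr7, which binds ligands outside the 10, was low, at 2.49 CPM with IL-13 + DKK1, 1.89 CPM with DKK1, 1.19 CPM with IL-13 and 0.406 CPM in untreated cells, and was called higher in all 3 treated groups. With IL-13 + DKK1 against IL-13 2 receptors were higher (Ccr1 and Ccr7) and 1 lower (Ccr2), where 4.66% and 6.10% of all tested genes were called. Against DKK1 1 was higher (Ccr3) and 2 lower, Ccr2 and the chemerin-binding Ccrl2 (-1.06 ± 0.12, edgeR adjusted p = 4.44e-07), where 3.22% and 2.29% were called. The interaction was called lower for 2, Ccr1 (-1.38 ± 0.13) and Ccr7 (-1.14 ± 0.40), against 2.50% of all tested genes.

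Of 11 further CC ligands, 4 were in the table and tested, and the other 7, Ccl1, Ccl11, Ccl19, Ccl20, Ccl21a, Ccl26 and Ccl28, were not in it. Ccl6 and Ccl9, ligands of Ccr1, were higher in all 3 treated groups. Ccl9 averaged 1174 CPM with IL-13 + DKK1, 1445 CPM with DKK1, 939 CPM with IL-13 and 331 CPM in untreated cells, and Ccl6 482 CPM with IL-13 + DKK1, 698 CPM with DKK1, 208 CPM with IL-13 and 76.2 CPM in untreated cells. Their interactions were -1.80 ± 0.08 for Ccl9 and -1.98 ± 0.10 for Ccl6. Ccl27a, at 0.943 CPM with IL-13 + DKK1 and 2.30 CPM in untreated cells, was called lower in that comparison (-1.26 ± 0.30, edgeR adjusted p = 0.00125), and Ccl25 was called in none.

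Chemokines are also trimmed by proteases and held at the cell surface by syndecans. Of 13 such genes 12 were tested. With IL-13 + DKK1 3 were higher (Mmp9, Mmp14 and Sdc4) and 1 lower (Sdc1) than in untreated cells, against 5.24% and 6.59% of all tested genes. With DKK1 4 were higher (Mmp9, Mmp14, Sdc1 and Sdc4), against 5.18%, and with IL-13 4 were higher (Mmp9, Mmp12, Mmp13 and Sdc4), against 4.64%. Compared with IL-13 alone, co-treatment gave 4 higher and 2 lower, against 4.66% and 6.10%. Compared with DKK1 alone it gave 1 higher and 1 lower, against 3.22% and 2.29%. Mmp12, a macrophage elastase known to cleave CC chemokines, averaged 167 CPM with IL-13 + DKK1, 116 CPM with DKK1, 812 CPM with IL-13 and 173 CPM in untreated cells. Sdc1, a syndecan that binds chemokines, averaged 20.1 CPM with IL-13 + DKK1, 109 CPM with DKK1, 74.9 CPM with IL-13 and 50.3 CPM in untreated cells, with an interaction of -3.0 ± 0.09 (edgeR adjusted p = 7.67e-15).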

How the data were processed

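Bulk RNA seq was made from 12 BMDM cultures with a stranded kit for total RNA and ribosomal depletion. The authors ran FastQC 0.11.9, STAR 2.7.6a against GRCm39 and featureCounts, and deposited the resulting raw counts. The submitters' processing notes also name DESeq2 1.30.0. The sources used here give neither version, annotation nor strand setting of featureCounts, which leaves overlapping and antisense genes uncertain. No gene in the table had a highest count under 11.

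From the deposited counts, edgeR 4.0.16 (R 4.3.3) was used with filterByExpr (minimum count 10, minimum total 15), TMM factors (0.945 to 1.043) and 1 mean per group over all 12 libraries. Values are TMM-scaled CPM, and ± after a log2 fold change is its standard error, taken as the fold divided by the root of the F statistic. In total 6 comparisons were tested with edgeR's quasi-likelihood test and Benjamini-Hochberg adjustment over all 16306 genes, with calls at an adjusted p below 0.05 and a log2 fold change beyond 1 either way, the study's own threshold. Chi-square per gene between replicates was 4.31 to 9.93, so no library was a copy of another. A value of 1 would be counting error for independent counts, which the excess of even counts makes uncertain here. The floor and bounds of Ccl17 cover counting error of the untreated group only.

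The alternatives were RLE, upper-quartile and library size scaling, no filter, DESeq2 1.42.0, only the groups compared, the adjusted p alone, a replicate block and each library left out. The members, the gene lists and the rule for named genes (all members, called receptors and other CC ligands, and the 2 genes most like each member) were chosen with earlier results of these data known, and 1 gene of the receptor list is not reported here. The proteases and syndecans given by name, the named cell type markers and the genes named for overlap were chosen after their values were seen, as were the shared promoter runs. Exon lengths and positions are from GENCODE vM39. Longer motifs for STAT6, NF-kB and the interferon response were also searched at first and are not reported here, because no file used here holds their letters.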

Additional observations from a re-analysis of the deposited data

Results flagged for a closer look

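For 8 of the 10 ligands the effect of DKK1 was called different with and without IL-13 by the interaction test of edgeR. It was called higher for 5 and lower for 3, against 2.12% and 2.50% of all tested genes. The call for Ccl8 was lost without untreated replicate 3. That for Ccl2 fell under the fold threshold without untreated replicate 2, IL-13 replicate 2 or DKK1 replicate 1. The differences, on the log2 scale and with IL-13 minus without, were 1.10 for Ccl2, 2.76 for Ccl7, 2.66 for Ccl8, 1.88 for Ccl3 and 2.32 for Ccl4. They were -3.99 for Ccl5, -3.53 for Ccl22 and -6.11 for Ccl17, of which the last depends on the prior count because Ccl17 had 0 counts in untreated cells, and it was -5.31 without DKK1 replicate 2. For Ccl3 and Ccl4 the difference is positive because DKK1 lowered them without IL-13 and moved them by -0.28 and 0.04 with it.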

How the results depend on the processing

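Of the members' log2 fold changes under the alternatives, 1104 kept their direction and their side of the threshold, 15 passed it only under the alternative, 5 no longer passed it and 4 changed sign. The 4 sign changes all belong to Ccl4 with IL-13 + DKK1 over IL-13, at -0.00135 with library size only and -0.0605, -0.00384 and -0.0703 without IL-13 replicate 3, IL-13 + DKK1 replicate 2 and IL-13 + DKK1 replicate 3 in that order, and its range with 1 library left out was -0.0703 to 0.180. With 0 members lower with IL-13 + DKK1 than with IL-13, there was 1 with library size only, with DESeq2 and with only the 2 groups compared (Ccl17 in each), 2 at the adjusted p alone, and 0 to 1 with libraries left out. Against DKK1 there was 1 lower at the adjusted p alone. At the adjusted p alone the genes called over the whole table were 7432 with DKK1 and 7671 with IL-13 over untreated, 8075 with IL-13 + DKK1 over untreated, 7242 with it over IL-13, 6408 over DKK1 and 4282 for the interaction, where the threshold with the fold gave 1899, 1326, 1930, 1754, 898 and 754. With only the 2 groups compared, Ccl17 in DKK1 over untreated and Ccl12 in IL-13 over untreated were not tested because their counts no longer passed the filter. The replicate block left the member counts at 7 higher and 2 lower with DKK1, 6 and 2 with IL-13, 8 and 2 with both, 6 and 0 over each single treatment and 5 and 3 for the interaction, and changed the whole-table counts to 1888, 1328, 1928, 1741, 898 and 769. Same-numbered replicates did not deviate together, with 18 correlations of -0.0636 to 0.0817, so the numbers were not taken as a pairing. Depth limits Ccl17 in all groups, and Ccl8 and Ccl12 without DKK1, where libraries held few counts.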
